A study of Caenorhabditis elegans with 53 samples.

Results

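The mRNA of adult Caenorhabditis elegans carrying the rde-1(ram40) allele was compared with that of wild type (N2). The comparison took 6 of the 53 libraries of the series, 3 of each genotype, and of the 30122 rows of the mRNA table the 11331 whose mean over the 6 libraries was at least 10 normalized counts. Of the rows tested, 90 were repeats or transposons and the others genes. All animals were whole gravid hermaphrodites without further treatment, collected 72 to 75 hours after synchronized L1 larvae were plated at 20 °C with E. coli OP50 or HT115 as food, and the labels do not say which food went with which library. Total RNA was depleted of rRNA and made into stranded libraries. The labels give neither the lesion in ram40 nor whether replicates came from separate cultures, so p-values measure the spread between these libraries, which may be technical.

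RDE-1 is an Argonaute, a protein that holds a small RNA and uses it to find matching transcripts. It is best known as the Argonaute that receives the Dicer-cut siRNAs made from introduced double-stranded RNA, and loss of RDE-1 makes worms resistant to RNA interference (RNAi). Transcripts that RDE-1 finds become templates for RNA-dependent RNA polymerases, whose products, the 22G-RNAs, are carried by other, worm-specific Argonautes. One endogenous route through RDE-1 is well described in C. elegans: the microRNA miR-243 is loaded into RDE-1 and directs 22G-RNA production at the mRNA of Y47H10A.5.

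The libraries held totals of 8.20e+06 to 9.00e+06 normalized counts, and log2 values of libraries within a group correlated at 0.981 to 0.986 across genes. The median SD between replicates was 0.185 on the log2 scale, and the 95% interval of the fold change lay within 1 log2 unit of 0 for 9811 of the 11331 rows (86.6%). Fold changes are differences of log2(normalized count + 1), which understates the change of low genes, and were tested with limma at an adjusted p of 0.05 (Benjamini-Hochberg over all 11331 rows). Closest to the limit on level were mnm-2, with a mean of 9.989 and not tested, and Y87G2A.19, with a mean of 10.0 and tested.

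Few mRNAs differed between rde-1(ram40) and wild type. At the threshold, 41 rows (0.362%) differed, of which 9 were higher (0.0794%) and 32 lower (0.282%) in the mutant. A change of at least 2-fold was seen for 24 of them (0.212%), 5 higher and 19 lower. The median log2 fold change over all rows was 0.02, with a 10th percentile of -0.33 and a 90th of 0.26. The 3 and 3 libraries did not overlap for 1465 rows (12.9%), and all 41 rows were among these. An unadjusted p below 0.05 was reached by 895 rows (7.9%), 385 higher and 510 lower. The count rested on particular wild-type libraries: 14 rows passed without wild type replicate 1, 12 of them among the 41, and 18 without wild type replicate 2, again with 12 of the 41. In all, 10 of the 41 passed whichever library was left out, namely rde-1, Y47H10A.5, Y55F3AM.11, pud-1.2, Y102A5C.5, Y102A5C.6, Y102A5C.36, ZC317.7, Y51F10.7 and ctsa-4.2. The other 31 missed the threshold in at least 1 such fit. In whole animals, fewer cells of a type and less RNA per cell cannot be told apart.

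**Figure D1:**
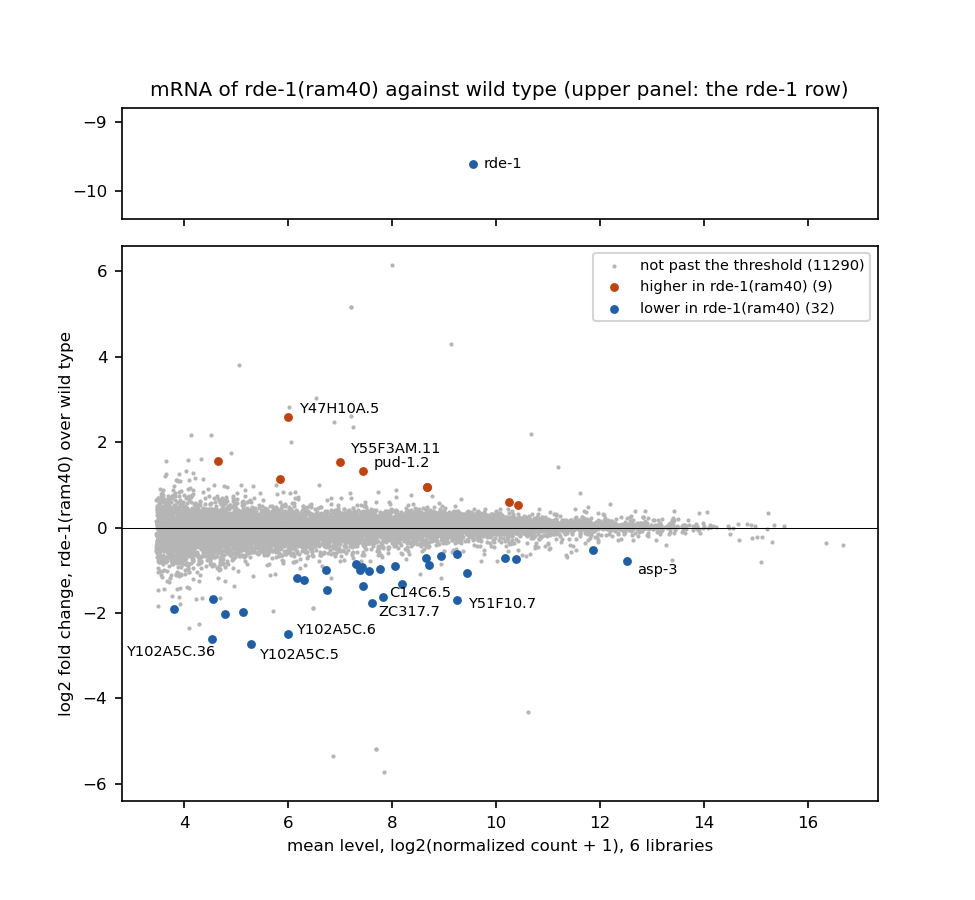
Log2 fold change of rde-1(ram40) over wild type (vertical axis) against mean level, log2(normalized count + 1), over the 6 libraries (horizontal axis), 1 point per tested row; the upper panel continues the same axis to hold rde-1 at -9.61. Orange points are the 9 rows higher and blue points the 32 rows lower in the mutant past the threshold; most of the 11331 rows lie close to 0, and the widest grey points include near-identical copies such as hsp-16.49 at -5.35.

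The targeted gene itself was nearly absent. The rde-1 mRNA (WBGene00004323) stood at 1506, 1619 and 1389 normalized counts in the wild-type libraries and at 1.07, 0.864 and 0.834 in those of rde-1(ram40). Each mutant library was thus near 1 normalized count, far below every wild-type library. The log2 fold change was -9.61 (SE 0.19; limma, adjusted p = 4.63e-11), a size that depends on the pseudocount because the mutant level is so low: it was -10.05 with 0.5 and -7.99 with 5 in place of 1. This gene placed all 6 libraries as their labels do.

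The mRNA of Y47H10A.5 (WBGene00012961), the miR-243 target, had the largest rise among the called rows. It stood at 17.2, 19.5 and 15.3 normalized counts in wild type and at 107, 110 and 110 in rde-1(ram40). The 3 mutant libraries lay close together and all above the wild-type ones, and the means differed 6.29-fold. The log2 fold change was 2.59 (SE 0.20, 95% interval 2.15 to 3.04; limma, adjusted p = 9.05e-05), and it ranged from 2.51 to 2.67 as each library was left out in turn. None of the other 5 tested loci in the list of known small RNA sources and targets passed the threshold. The lowest bound of their 95% intervals was -0.87. They were Y57G11C.51 (-0.33), rncs-1, a noncoding RNA reported to bind Dicer (0.05), nrfl-1 (-0.01), oma-1, which encodes an oocyte maturation protein (-0.04), and dcr-1, which encodes Dicer (0.00). The list was drawn up with earlier results on these samples known, so it is not independent evidence for Y47H10A.5.

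The rest of the RNAi machinery stayed close to its wild-type level. Of 31 tested genes besides rde-1, none passed the threshold, 2 of the 32 members including rde-1 had an unadjusted p below 0.05, and the median log2 fold change was 0.04 against 0.02 over all rows. For 30 of the 31 the 95% interval lay within 1 log2 unit of 0. The dsRNA-binding partner of RDE-1 and Dicer, rde-4, stood at 1689, 1848 and 1614 normalized counts in wild type and 1729, 1885 and 1607 in the mutant, a log2 fold change of 0.02. The RNA-dependent RNA polymerase genes rrf-1, ego-1 and rrf-3 had values of 0.07, 0.11 and 0.01, and mut-16, the scaffold of the foci where 22G-RNAs are made, 0.04. The endoribonuclease gene rde-8 had 0.19. Among genes for the uptake and spread of double-stranded RNA, the channel gene sid-1 had -0.04. The value of sid-2, which acts in uptake from the gut lumen, was -0.35 (95% interval -0.83 to 0.12).

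The widest departure in this list was sid-5, which encodes an endosome-associated protein needed for systemic RNAi. It stood at 48.7, 37.7 and 53.3 normalized counts in wild type and at 70.8, 78.5 and 96.1 in the mutant. The groups did not overlap, but the log2 fold change of 0.80 (SE 0.21, 95% interval 0.35 to 1.25) missed the threshold (limma, adjusted p = 0.263).

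No other Argonaute mRNA differed at the threshold. For 17 of the 18 Argonautes tested besides rde-1, the 95% interval lay within 1 log2 unit of 0, and the median log2 fold change was 0.04. ERGO-1, which carries the 26G-RNAs of the embryo and oocyte, had an mRNA level of 2848 ± 349 normalized counts in wild type and 3146 ± 186 in the mutant (SD, n = 3 each, as for all values written with ±), a log2 fold change of 0.15. The germline Argonaute gene csr-1 had -0.06 and the piRNA Argonaute gene prg-1 0.04. The microRNA Argonaute genes alg-1 and alg-2 had 0.07 and -0.04. Of the Argonautes that carry secondary 22G-RNAs, wago-1 had 0.05, hrde-1 0.04, nrde-3 0.17, ppw-1 0.01 and sago-2 -0.27. The exception in precision was wago-11, at 16.7 ± 4.09 against 26.3 ± 12.7 normalized counts, with a log2 fold change of 0.56 and an interval from -0.22 to 1.35.

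**Figure D2:**
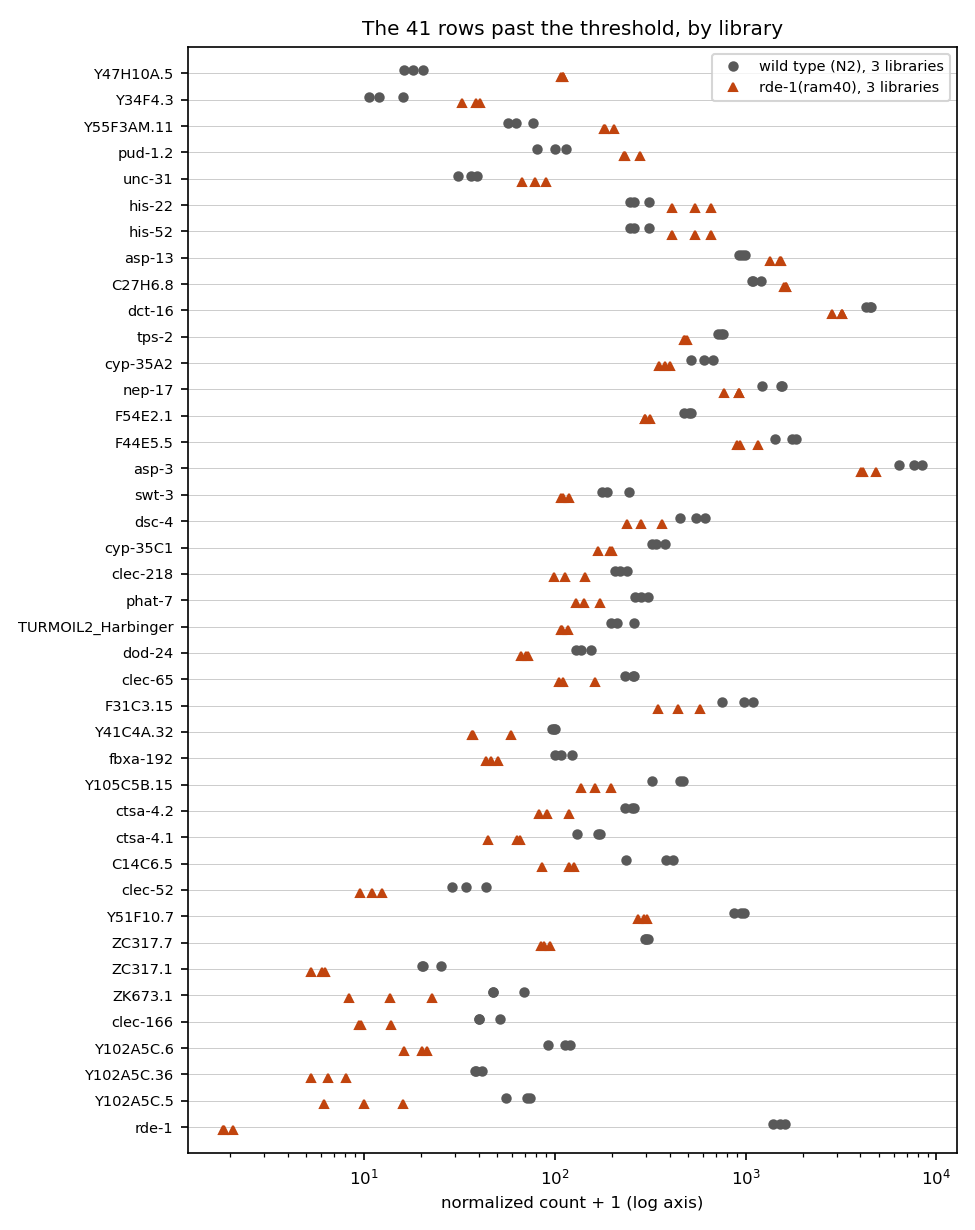
Normalized count + 1 in each library on a log axis for the 41 rows past the threshold, ordered by fold change, with wild type as grey circles and rde-1(ram40) as orange triangles. The 9 rows at the top were higher and the 32 below lower in the mutant, and no row has overlapping groups.

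Besides Y47H10A.5, 8 rows rose, by smaller amounts. Y55F3AM.11 stood at 61.4, 56.1 and 76.4 normalized counts in wild type and at 183, 203 and 180 in the mutant, a log2 fold change of 1.54 (SE 0.16; limma, adjusted p = 0.00147). Y34F4.3 stood at 11, 9.59 and 15.1 and at 39.7, 31.9 and 37.5, a log2 fold change of 1.55 (SE 0.28; limma, adjusted p = 0.0436). The first passed whichever library was left out, and the second in 1 of the 6 such fits.

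The gene pud-1.2 belongs to a pair of near-identical copies known from proteins that are more abundant in daf-2 insulin receptor mutants. It stood at 99.7, 80.3 and 114 normalized counts in wild type and at 232, 278 and 231 in the mutant, a log2 fold change of 1.33 (SE 0.16; limma, adjusted p = 0.00364). Reads may be split between the copies, and the sum of both rows gave the same picture: 108, 80.3 and 118 in wild type against 245, 278 and 248.

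The neuronal gene unc-31, which encodes the CAPS protein of dense-core vesicle release, stood at 38.4, 30.2 and 35.4 in wild type and at 66.2, 78.1 and 88.6 in the mutant. Its log2 fold change was 1.14 (SE 0.21; limma, adjusted p = 0.0433), but it missed the threshold whichever library was left out, with adjusted p from 0.0543 to 0.181. None of the 8 tested neuron markers passed, and their log2 fold changes ran from -0.40 to 0.23. The histone rows his-22 and his-52 had the same values in each library and so count as 1 measurement, 273 ± 33.9 normalized counts in wild type against 537 ± 122 in the mutant (log2 fold change 0.96, SE 0.16; limma, adjusted p = 0.0311). Histone genes are near-identical copies among which reads may be split, and over all 72 histone rows the summed level was 1.15 times that of wild type, with overlapping groups.

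The remaining rises were small in size at well-expressed genes. The aspartyl protease gene asp-13 stood at 958 ± 36.7 normalized counts in wild type and 1465 ± 99.8 in the mutant, a log2 fold change of 0.61. C27H6.8 had a log2 fold change of 0.52 and is described with the neighbours of rde-1 below.

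The largest falls after rde-1 among the called rows came from 3 genes that follow each other in the RefSeq annotation (assembly WBcel235), Y102A5C.36, Y102A5C.5 and Y102A5C.6, for which the sources used here name no function. Y102A5C.5 stood at 70.6, 54.4 and 72.9 normalized counts in wild type and at 15, 9.03 and 5.2 in the mutant, a log2 fold change of -2.73 (SE 0.34; limma, adjusted p = 0.00509). Y102A5C.6 stood at 112, 120 and 91.3 and at 20.4, 19.3 and 15.2, a log2 fold change of -2.49 (SE 0.22; limma, adjusted p = 0.000235). Y102A5C.36 stood at 37.6, 37.2 and 40.7 and at 4.29, 5.5 and 7.03, a log2 fold change of -2.60 (SE 0.31; limma, adjusted p = 0.00364). Every mutant library was below every wild-type library for each gene, and all 3 passed whichever library was left out. The fall stopped at the ends of the run: none of the 12 tested neighbours within 10 annotated genes passed, and their log2 fold changes ran from -0.95 to 0.39. The cell-cycle transcription factor gene efl-1, the next tested gene on the far side of Y102A5C.6, had a log2 fold change of 0.01.

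A second pair of adjacent genes fell together. ZC317.7 stood at 300, 307 and 296 normalized counts in wild type and at 86.8, 93.7 and 83.7 in the mutant, a log2 fold change of -1.76 (SE 0.13; limma, adjusted p = 4.65e-05). Its neighbour ZC317.1 stood at 24.5, 19.4 and 19.1 and at 4.29, 5.25 and 5.06, a log2 fold change of -1.90 (SE 0.34; limma, adjusted p = 0.0433). The groups were well apart for both genes, yet the lower-expressed ZC317.1 missed the threshold in each of the 6 fits that left out a library. None of 12 tested neighbours passed, with log2 fold changes from -0.57 (T05C3.6) to 0.16.

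**Figure D3:**
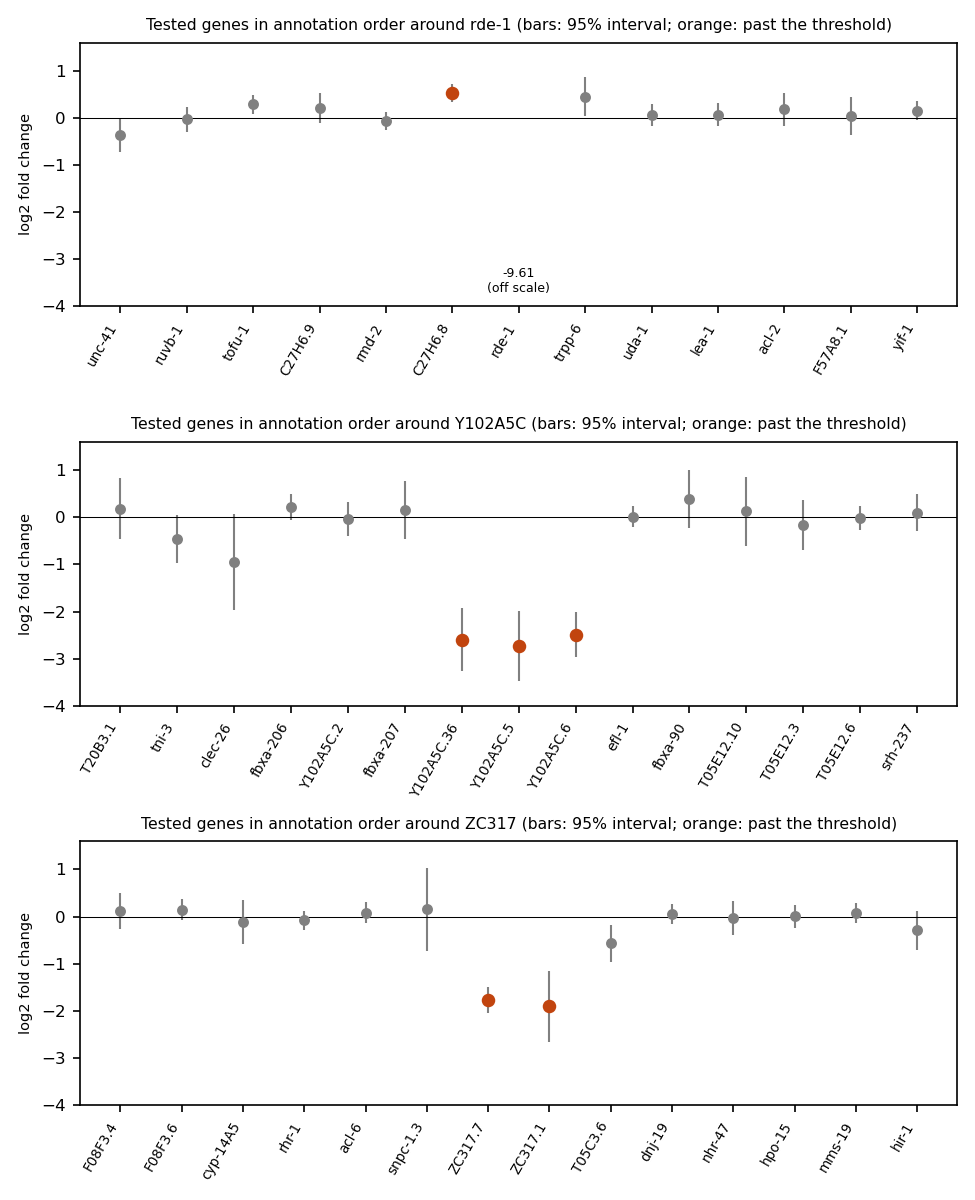
Log2 fold change with its 95% interval for tested genes in annotation order, within 10 annotated genes of rde-1 (top), of the Y102A5C run (middle) and of the ZC317 pair (bottom); equal steps on the horizontal axis stand for successive tested genes, not for distance. Orange points passed the threshold; among the genes directly beside the called ones, T05C3.6 lies at -0.57 and trpp-6 at 0.45, neither past the threshold.

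Close to rde-1 itself, 1 of 29 tested rows within 50 annotated genes passed the threshold, against 0.362% of all rows. This was the gene C27H6.8, which directly adjoins rde-1. It stood at 1077, 1097 and 1205 normalized counts in wild type and at 1636, 1583 and 1637 in the mutant, with no overlap. The log2 fold change was 0.52 (SE 0.09; limma, adjusted p = 0.0317), and the gene passed in 1 of the 6 fits that left out a library. On the other side of rde-1, trpp-6, which encodes a subunit of a vesicle tethering complex, had a log2 fold change of 0.45 with overlapping groups. The other tested genes among the 5 on each side were ruvb-1, tofu-1, C27H6.9, rmd-2, uda-1, lea-1, acl-2 and F57A8.1, with log2 fold changes from -0.07 to 0.29. The highest, tofu-1 on the side of C27H6.8, stood at 664, 693 and 709 in wild type and 862, 862 and 807 in the mutant. Its groups did not overlap, but it missed the threshold (limma, adjusted p = 0.405).

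Among single genes that fell, Y51F10.7 had the smallest adjusted p after rde-1. It stood at 949, 982 and 871 normalized counts in wild type and at 303, 271 and 294 in the mutant, a log2 fold change of -1.69 (SE 0.10; limma, adjusted p = 8.86e-06). C14C6.5 stood at 414, 383 and 235 and at 126, 118 and 84.7, a log2 fold change of -1.62. Y105C5B.15 stood at 471, 452 and 324 and at 196, 161 and 137, a log2 fold change of -1.33. In both of the latter the third wild-type library was the lowest of its group and still above every mutant library.

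ZK673.1 fell by 1.97 on the log2 scale, Y41C4A.32 by 1.19 and F31C3.15 by 1.07. The F-box gene fbxa-192, a member of a large family of candidate ubiquitin-ligase adaptors, fell by 1.23. It was the only one of 80 tested F-box A genes to pass in either direction (1.25%, against 0.362% of all rows), and the median of the family was 0.16.

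In the C-type lectin family, whose members encode sugar-binding domain proteins often linked to the gut and to pathogen response, 4 of 61 tested genes fell and none rose (6.56%, against 0.362% of all rows), with a family median of -0.17. These were clec-166 (43.2 ± 6.75 to 9.99 ± 2.49 normalized counts, log2 fold change -2.02), clec-52 (34.7 ± 7.57 to 10 ± 1.42, -1.68), clec-65 (249 ± 14.6 to 125 ± 31.3, -1.02) and clec-218 (221 ± 15.3 to 118 ± 22.8, -0.92). The summed level of all 264 family rows did not fall with them: it was 0.305% to 0.317% of the library in wild type and 0.323% to 0.332% in the mutant, higher and without overlap. None of these lectins passed in more than 4 of the 6 fits that left out a library.

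Of the peptidases, the cathepsin A-like pair ctsa-4.1 and ctsa-4.2 fell, from 157 ± 22.8 to 57.1 ± 11.4 (log2 fold change -1.45) and from 247 ± 13.4 to 96.8 ± 18.7 (-1.36; SE 0.16; limma, adjusted p = 0.00319). Reads may be split between these copies, and their sum was 404 ± 36.2 normalized counts in wild type against 154 ± 28.1 in the mutant. The aspartyl protease gene asp-3 was the most abundant mRNA among the falls, at 8412, 7608 and 6389 in wild type and 4838, 4009 and 4124 in the mutant, a log2 fold change of -0.78. Of 11 tested aspartyl protease genes, 3 had positive and 8 negative log2 fold changes, with a median of -0.06; asp-13, which rose, and asp-3 were the members that passed (18.2%, against 0.362% of all rows, in a family chosen after its values were seen). The neprilysin gene nep-17, a membrane metallopeptidase, fell by 0.71. It alone passed of 11 tested neprilysin genes (9.09%), whose median was -0.11. Of 6 tested cathepsin A-like genes, the 2 named above passed (33.3%), with a family median of -0.37. The share over all rows was 0.362%, and these 2 families were also chosen after their values were seen.

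Of the cytochrome P450 genes, which serve in detoxification and lipid metabolism, 2 of 43 tested fell and none rose (4.65%, against 0.362% of all rows), with a median of -0.06. These were cyp-35C1, from 346 ± 29.4 to 187 ± 17.2 (log2 fold change -0.89), and cyp-35A2, from 599 ± 80.1 to 377 ± 26.4 (-0.66). None of 49 UDP-glucuronosyltransferase and 22 glutathione S-transferase genes passed. An unadjusted p below 0.05 (limma) was reached by 12 and 6 of them, against 7.9% of all rows. Groups did not overlap for 11 and 6, against 12.9% of all rows, and the family medians were -0.11 and -0.04. Other metabolic genes that fell were tps-2, a trehalose-6-phosphate synthase (-0.61), swt-3, a SWEET-family sugar transporter (-0.85), and dsc-4, the large subunit of the microsomal triglyceride transfer protein that loads lipid onto lipoproteins (-0.87). Further falls were dod-24, a gene downstream of the DAF-16 transcription factor (-1.0), phat-7, which encodes a pharyngeal gland protein (-0.96), dct-16 (-0.53) and F54E2.1 (-0.72). Of 7 tested dod genes, 4 had positive and 3 negative log2 fold changes, with a median of 0.09, and dod-24 alone passed (14.3%). Of 7 phat genes, phat-7 alone passed (14.3%, median -0.42), and of 5 swt genes swt-3 alone (20%, median -0.03). The share over all rows was 0.362%, and these families were chosen after their values were seen.

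The yolk protein genes did not pass, though all 6 were lower. The vitellogenins, made in the intestine and taken up by oocytes, had a median log2 fold change of -0.34. Together they took 3.54%, 3.02% and 2.46% of the wild-type libraries and 2.3%, 2.13% and 2.23% of the mutant ones. The shares did not overlap, and the two-sided exact permutation test gave p = 0.1, the smallest that 3 against 3 libraries allow. By gene, vit-1 had -0.76 (limma, adjusted p = 0.0591) and vit-2 -0.80 (limma, adjusted p = 0.115).

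Among stress genes, the Hsp70-family gene F44E5.5 fell from 1665 ± 217 to 1000 ± 140 normalized counts, a log2 fold change of -0.73 (SE 0.13; limma, adjusted p = 0.0317). It was the only one of 10 tested heat shock genes to pass (10%, against 0.362% of all rows), and hsp-70 missed the threshold at -0.78 (limma, adjusted p = 0.0528). Of the 10, 3 had positive and 7 negative log2 fold changes, with a median of -0.49. An unadjusted p below 0.05 (limma) was reached by 5 of them, against 7.9% of all rows. For 5 the groups did not overlap, against 12.9% of all rows. The small heat shock genes hsp-16.48 and hsp-16.49 had opposite and very wide values, 2.61 and -5.35. Reads may be split between these near-identical copies, and their sum, 302 ± 61.3 in wild type and 222 ± 44.6 in the mutant, overlapped between groups. The sum of hsp-16.1 and hsp-16.11, 380 ± 56.3 in wild type and 256 ± 54.1 in the mutant, did not overlap. None of 8 genes of the intracellular pathogen response, a program induced by viruses and microsporidia, passed, and their log2 fold changes ran from -0.35 to 0.40. Of 7 tested pals genes, 5 irg genes and 10 lysozyme genes none passed either. An unadjusted p below 0.05 (limma) was reached by 2 irg and 3 lysozyme genes and by no pals gene, against 7.9% of all rows. None of the 12 tested reporters of organelle and oxidative stress passed.

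**Figure D4:**
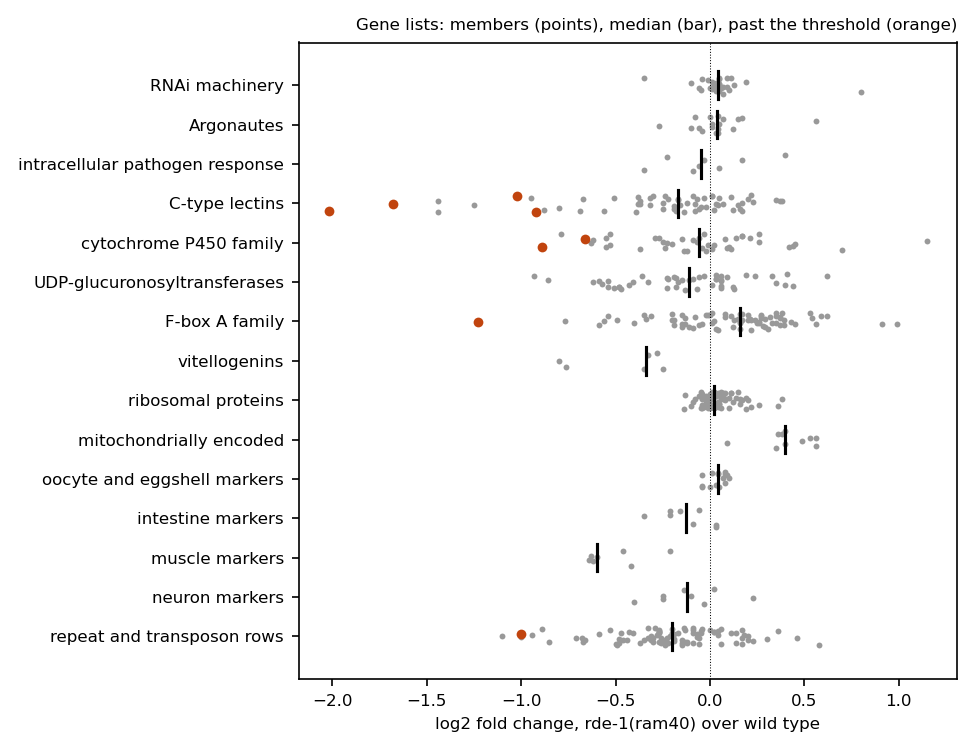
Log2 fold change of rde-1(ram40) over wild type (horizontal axis) for the tested members of 15 gene lists, rde-1 left out; each point is a member, the black bar the list median, and orange marks members past the threshold. The RNAi machinery and Argonautes cluster at 0, while the C-type lectins spread to -2.02.

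The label of gravid adults was checked against tissue and stage markers. Transcripts of 15 oocyte and eggshell genes made up 1.78% ± 0.18 of the wild-type and 1.83% ± 0.13 of the mutant libraries (SD, n = 3 each), and their log2 fold changes ran from -0.04 to 0.10. None of the 35 major sperm protein rows reached the limit on level, and 1 of 11 sperm markers did. The 8 intestine markers had log2 fold changes from -0.35 to 0.03 and the 9 tested zygotic embryo markers from -1.0 to 0.48, with none past the threshold. The 7 muscle markers were all lower, with a median of -0.60 and none past the threshold. Of these 7, 5 had an unadjusted p below 0.05 (limma), against 7.9% of all rows. For 4 the groups did not overlap, against 12.9% of all rows. Their summed share was 0.132% ± 0.017 in wild type and 0.0966% ± 0.019 in the mutant, with overlapping groups. The 10 tested mitochondrially encoded genes were all higher, with a median of 0.40 and none past the threshold. An unadjusted p below 0.05 (limma) was reached by 5 of them, but all had overlapping groups. Their share was 0.868% ± 0.21 against 1.11% ± 0.18, again overlapping. The part of these shifts in the falls named above was not tested.

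Transposons and other repeats showed no general rise. Of 90 tested repeat rows, 20 had positive and 70 negative log2 fold changes, with a median of -0.20, and 1 passed (1.11%, against 0.362% of all rows). That was TURMOIL2_Harbinger, a DNA transposon of the Harbinger type, at 212, 259 and 197 normalized counts in wild type and 108, 116 and 107 in the mutant, a log2 fold change of -1.0 (SE 0.14; limma, adjusted p = 0.0116). The repeat rows as a whole took 0.433% ± 0.054 of the wild-type and 0.391% ± 0.0077 of the mutant libraries, with overlapping groups (two-sided exact permutation test, p = 0.3, smallest possible 0.1).

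The authors' small RNA table assigns genes to classes by the pathway that makes or carries their 22G-RNAs. Of 1320 tested genes of the WAGO class, 1 rose and 4 fell (0.379%, against 0.362% of all rows), and of 3578 of the CSR class 1 rose and 2 fell (0.0838%). The 2 falls of the CSR class were rde-1 itself and ZC317.7. Of 63 targets of ERGO-dependent small RNAs 1 rose, unc-31 (1.59%). None of 22 genes classed as targets of 23H-RNAs, the Dicer-dependent siRNAs named in the study's title, and none of 533 classed as ALG targets passed.

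The mRNA changes were then set beside the 22G-RNAs of the same genes in a separate experiment of the series. It compared 3 small RNA libraries of wild type with 3 labelled rde-1(ne219), another allele, so that the genotype differs as well as the libraries; the study's design text names only rde-1(ram40) for the small RNA work, and the sample labels are followed here. At the same threshold 7152 of 13650 tested small RNA rows differed (52.4%), 39.5% higher and 12.9% lower. This split depends on scaling: with each library centred on its median, 6340 differed and 53.1% of these were higher, against 75.4% without centring. The median log2 difference over all small RNA rows was 0.18, and individual values are to be read against it.

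The 22G-RNAs of Y47H10A.5 were nearly lost in rde-1(ne219). Its 22G-RNAs were at 892.8, 870.49 and 926.35 RPM, reads scaled to library size, in wild type and at 4.83, 2.67 and 1.63 in rde-1(ne219), a log2 fold change of -7.87 (SE 0.21; limma, adjusted p = 3.16e-10). Among 7591 genes tested in both tables, 79 had 22G-RNAs lower by at least 2-fold and past the threshold, and Y47H10A.5 was the only one of these whose mRNA passed, 1.27% against 0.263% of the genes tested in both. Large losses of 22G-RNA elsewhere came without a called change in mRNA. Y81B9A.5, chosen after its values were seen, had 22G-RNAs at 788 ± 14.1 RPM in wild type and 95.2 ± 11 in rde-1(ne219), while its mRNA was at 612 ± 189 and 781 ± 337 normalized counts (log2 fold change 0.30, 95% interval -0.31 to 0.91). The ryanodine receptor gene unc-68, likewise chosen afterwards, had 22G-RNAs at 59.5 ± 4.38 and 10.3 ± 0.944 RPM and an mRNA log2 fold change of -0.30 (limma, adjusted p = 0.613).

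**Figure D5:**
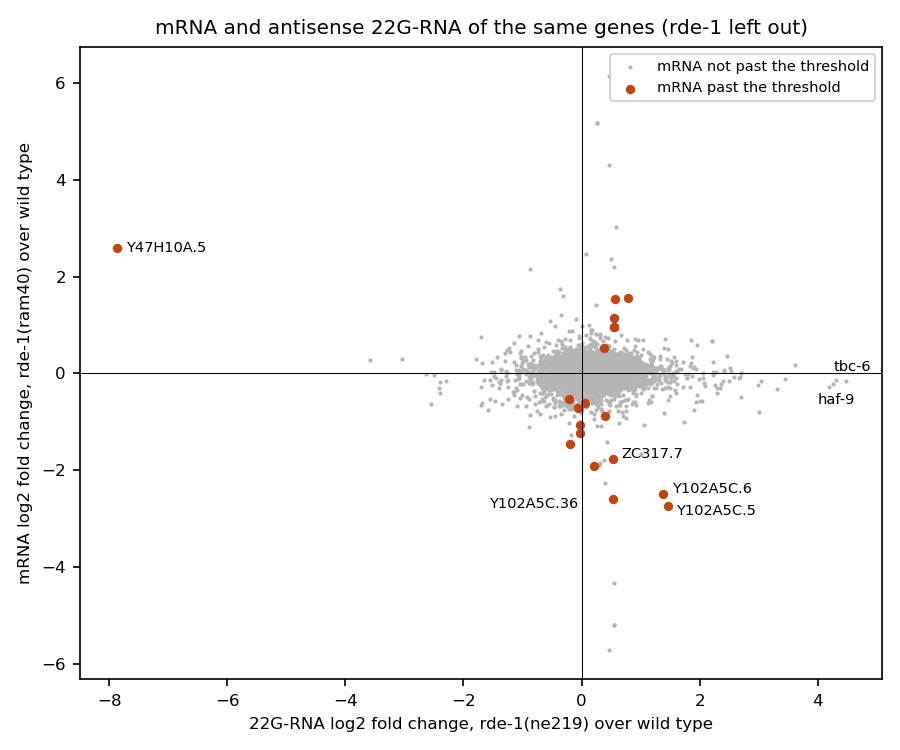
mRNA log2 fold change in rde-1(ram40) (vertical axis) against 22G-RNA log2 fold change in rde-1(ne219) (horizontal axis), each over its own wild type, 1 point per gene tested in both tables, without rde-1. Orange marks the mRNAs past the threshold; Y47H10A.5 lies apart at -7.87 and 2.59, and genes with large 22G-RNA gains such as tbc-6 and haf-9 lie near 0 on the mRNA axis.

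In the other direction, 249 genes had 22G-RNAs higher by at least 2-fold, and 2 of them had a called fall in mRNA, Y102A5C.5 and Y102A5C.6 (0.803%). Of the 7591 genes tested in both, 0.263% had a called mRNA in either direction, and 13, rde-1 included, had a called fall. Y102A5C.5 and Y102A5C.6 adjoin each other and fell together, so they may not be 2 separate cases. The 22G-RNAs of Y102A5C.5 were at 5.31, 5.63 and 5.57 RPM in wild type and at 18.22, 16.3 and 16.16 in rde-1(ne219), and those of Y102A5C.6 at 26.05, 27.48 and 23.99 and at 74.24, 62.78 and 68.99. The third gene of the run, Y102A5C.36, stood at 117.27, 125.48 and 114.13 RPM and at 180.9, 165.08 and 171.22 (log2 fold change 0.53). Of the 39 genes with a rise of at least 4-fold, none had a called mRNA change. They include haf-9, an ABC transporter gene (7.55 ± 0.527 to 168 ± 8.57 RPM, mRNA log2 fold change -0.14), and tbc-6 (5.92 to 6.23 RPM in wild type, 145.25 to 171.96 in rde-1(ne219), mRNA log2 fold change -0.16), both chosen after their values were seen.

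Across the 7591 genes, mRNA and 22G-RNA fold changes showed little relation, with a Pearson r of -0.0143 and a Spearman rho of 0.0244. Genes within these libraries share depth and scaling and are not replicates, so no p-value is given. Of the 20 called mRNAs with a tested 22G-RNA row, rde-1 included, 14 also had called 22G-RNAs (70%), 13 of these higher. This is near the 62.8% of all 7591 genes with called 22G-RNAs, most of them also higher (54.4% of the genes higher and 8.46% lower). For fbxa-192, which has abundant 22G-RNAs of the WAGO class, the 22G-RNAs were level at 286 ± 4.34 and 281 ± 13.5 RPM while the mRNA fell.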

How the data were processed

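The mRNA table holds deposited signal values, normalized counts that the authors produced using fastp, STAR, RSEM and DESeq2 per the submitters' processing notes. The small RNA table holds RPM values deposited by the authors, for which the series design text names tinyRNA and custom scripts. Genome build, annotation and RPM denominator are not given in the sources used here. The normalized values were not multiples of 1 step, so whole reads were not recovered and no count model was run. Values were tested as log2(normalized count + 1), mean at least 10, or log2(RPM + 1), mean at least 1, with limma 3.58.1 in R 4.3.3 (lmFit, eBayes with trend), two-sided, Benjamini-Hochberg adjusted over all rows of a table at 0.05. The procedure was tested on simulated data. Shares of library totals were compared by exact permutation. Gene symbols came from a table of gene IDs, and a symbol shared by several IDs was replaced by the small RNA table's feature name. RefSeq gene order (WBcel235) was used only to find neighbours.

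Genes were named by a rule: rde-1, members of the RNAi, Argonaute and small RNA locus lists, at most 4 called members of each other list, the 12 largest called rises and falls without overlap and with at least 50 normalized counts in the higher group, and 5 tested genes on each side of rde-1. The other genes named were chosen after their values were seen. They include the remaining called rows, vit-1, vit-2, hsp-70, hsp-16.1, hsp-16.11, hsp-16.48 and hsp-16.49. The aspartyl protease, cathepsin A-like, neprilysin, dod, phat and swt families were likewise chosen afterwards. Members and lists were chosen with earlier results of these data known. Alternatives changed the pseudocount, the limit on level, the scaling and the replicate block, and left out each library in turn.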

Additional observations from a re-analysis of the deposited data

How the results depend on the processing

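No called mRNA changed sign in any of 13 alternatives, and 8 of the 41 passed in all of them, 3 rises and 5 falls. The count of 41 was 41 with a pseudocount of 0.5 or 5, 45 without a limit on level, 29 with a mean of at least 50, 47 with median centring and 45 with TMM factors. Of 24 changes of at least 2-fold, 15 passed with a mean of at least 50, where fewer genes were tested. Leaving out each library gave 14 to 50 calls (14 without wild type replicate 1, 18 without wild type replicate 2) and 14 to 29 of at least 2-fold. The cause was not tested. Deviations of same-numbered samples correlated at 0.222, -0.161 and 0.201, and the labels name no link between these samples beyond the number. Whether they shared a batch was not tested. With the replicate block 89 rows passed, among them all 41. The small RNA count of 7152 was 5847 to 6876 as each library was left out, 6687 with the replicate block, and 6340 to 7116 under the other alternatives. The planned count tests were not run because whole reads could not be recovered. The 95% interval reached a median of 0.33 log2 units to either side of the estimate, without adjustment for the number of rows. Passing the adjusted threshold took larger changes: the smallest called change was 0.52 (C27H6.8), and sid-5 missed the threshold at 0.80. Smaller changes were mostly not detectable, and rows that did not pass may hold changes well above 0.33.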
